A study of Mus musculus with 12 samples.

Results

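Chemokines are small secreted proteins that guide the migration of leukocytes and other cells. The genes of these ligands and of their receptors were compared here between angiogenic and non angiogenic islets of RIP1-Tag2 mice. Members were all genes whose single symbol in the array annotation starts with Ccl, Cxcl, Cx3cl, Xcl, Ccr, Cxcr, Cx3cr or Ackr followed by a digit. The rule gave 55 of 19938 genes, of which 34 encode ligands and 21 encode receptors. It used no measured difference, and took only the brightest transcript cluster (the array's unit of measurement) where a gene had several.

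Total RNA came from 12 pools of early tumor islets, 6 called Angiogenic and 6 called Non Angiogenic, with an Affymetrix mouse gene array for every pool. All pools were from Rip1Tag2 mice 8 weeks of age on a C57BL/6 background, in which the rat insulin promoter drives the SV40 T antigen in beta cells. The islets were released with collagenase and purified on a density gradient, which leaves the vessels, stromal cells and leukocytes of an islet together with its tumor cells. Neither the number of mice or islets per pool nor whether pools shared mice is given, and p-values therefore measure the spread between these pools. Values are RMA levels on a log2 scale. A difference of these log2 levels, angiogenic minus non angiogenic, is also given as a ratio.

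The ligands are named by the spacing of their first cysteines (CC, CXC, CX3C, XC) and bind G protein-coupled receptors of the matching class, several ligands often sharing a receptor. CC ligands such as CCL2 and CCL3 recruit monocytes, the CXC ligands CXCL9, CXCL10 and CXCL11 are induced by interferon and attract T cells through CXCR3, and CXCL1 and CXCL2 attract neutrophils through CXCR2. Atypical receptors (Ackr) bind chemokines without coupling to G proteins and clear or transport them. In tumors chemokines are known for drawing in macrophages and for acting on the endothelium.

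All 10 measured beta cell markers of a list of 14 were above the dim limit, a log2 level of 6.44 under which 95% of 1027 olfactory receptor genes lay. The arrays fell into 2 sets, replicates 1 to 3 and replicates 4 to 6, along a first principal component with 41.5% of the variance. With group in the model, 7349 of all genes and 14 of the 55 members differed between the sets (limma, adjusted p under 0.05). Each set holds 3 arrays of each group. The study describes its profiling as separate experiments, and no label ties an array to one of them, so the 6 arrays of a group may be fewer than 6 independent experiments, and the SEs and p-values over them do not show the spread between experiments. Non Angiogenic replicate 4 stood apart in B cell and acinar markers. It had the highest level of 8 of the 10 measured B cell and plasma cell markers and the highest mean of the acinar markers (12.07, against 7.67 to 10.89 on the angiogenic arrays and 7.48 to 9.99 on the other non angiogenic arrays). Of the 55 members, 4 were highest on it. Without it, the number of ligands higher in angiogenic islets was 4 and that of receptors 1, which was then Ackr1 (adjusted p = 0.0467 from limma) and not Cx3cr1 (0.0701).

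The sequence upstream of the gene start was available from RefSeq (build GRCm38.p6) for 41 of the 55 members, in 43 windows of 250 bases. The windows were searched on both strands for the kB motif bound by NF-kB factors (GGG and TTTCC with any 2 bases between them), the interferon-stimulated response element (GAAA and GAAA with any 2 bases between them) and the gamma-activated site TTCNNNGAA. A match was found in 6, 3 and 4 of the 43 windows, against 1.41%, 2.98% and 7.02% of 32851 windows of all genes, and no match of one motif overlapped a match of another. The windows of 4 ligands are shown. Cxcl9 and Ccl3 had the largest rises described below, while Cxcl10, the genome neighbour of Cxcl9, and Cxcl2 did not pass the test. No window was available for Ccl2, Ccl7 and Cxcl16, the other ligands that rose. Capitals mark a motif match.
Cxcl9 (chr5:92328080-92328329, minus strand): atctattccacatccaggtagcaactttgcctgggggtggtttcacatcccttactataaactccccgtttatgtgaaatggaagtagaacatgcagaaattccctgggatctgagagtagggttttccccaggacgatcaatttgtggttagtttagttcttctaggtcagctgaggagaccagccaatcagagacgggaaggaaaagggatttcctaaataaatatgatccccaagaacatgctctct
Ccl3 (chr11:83649379-83649628, minus strand): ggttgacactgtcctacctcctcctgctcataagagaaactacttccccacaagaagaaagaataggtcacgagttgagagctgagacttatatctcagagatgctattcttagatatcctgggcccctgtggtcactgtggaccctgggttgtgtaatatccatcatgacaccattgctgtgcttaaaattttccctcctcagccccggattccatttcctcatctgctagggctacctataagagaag
Cxcl10 (chr5:92348890-92349139, minus strand): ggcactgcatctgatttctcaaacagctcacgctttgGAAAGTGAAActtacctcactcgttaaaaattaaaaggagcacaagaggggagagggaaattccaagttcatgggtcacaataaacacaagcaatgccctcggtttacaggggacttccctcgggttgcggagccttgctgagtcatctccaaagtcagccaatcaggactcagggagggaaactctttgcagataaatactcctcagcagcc
Cxcl2 (chr5:90903649-90903898, plus strand): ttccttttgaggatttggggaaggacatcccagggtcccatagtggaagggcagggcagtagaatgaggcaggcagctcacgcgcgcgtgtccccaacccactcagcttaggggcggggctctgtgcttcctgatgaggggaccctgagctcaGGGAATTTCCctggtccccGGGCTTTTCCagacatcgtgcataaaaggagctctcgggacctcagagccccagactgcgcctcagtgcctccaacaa
The Cxcl10 window holds GAAAGTGAAA, starting 213 bases before the gene start, and the Cxcl2 window holds 2 kB matches, starting 97 and 78 bases before it. The windows of Cxcl9 and Ccl3 hold none of the 3 motifs in the form searched. Sites of another form or outside the 250 bases would be missed. GGGAATTTCC occurred in the windows of Cxcl1, Cxcl2 and Cxcl3, and GAAAGTGAAA in those of Ccl19 and Cxcl10. A match is only a run of letters and was not tested as a binding site.

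Of the members, 6 rose in angiogenic islets and none fell by limma. Of 34 ligands, 5 were higher (Ccl2, Ccl7, Ccl3, Cxcl9 and Cxcl16), and of 21 receptors 1 was higher, Cx3cr1, by limma with a Benjamini-Hochberg adjusted p under 0.05 over all genes. Over all 19938 genes, 3.55% were higher and 0.948% lower by the same rule. At an unadjusted p under 0.05, 7 ligands were higher and 1 lower, and 5 receptors were higher and 0 lower, against 7.76% of all genes higher and 6.59% lower. After adjustment, the methods' t-test gave 2 ligands and 0 receptors higher and none of either lower. Leaving out an array gave 3 higher ligands without Angiogenic replicates 2, 4 or 5 or Non Angiogenic replicates 1, 3 or 6. It gave 0 higher receptors without Angiogenic replicates 1, 2 or 4 or Non Angiogenic replicates 1, 2, 5 or 6, and 2 without Angiogenic replicate 3. The median difference was 0.04 for ligands, 0.01 for receptors and -0.02 for all genes, and 34 of the 55 members had a difference above 0, against 40.1% of all genes. Levels were above the dim limit for 21 of 34 ligands and for 7 of 21 receptors, so most receptors were measured where RMA compresses differences. In bulk samples, fewer cells of a type and less RNA per cell cannot be told apart.

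**Figure D1:**
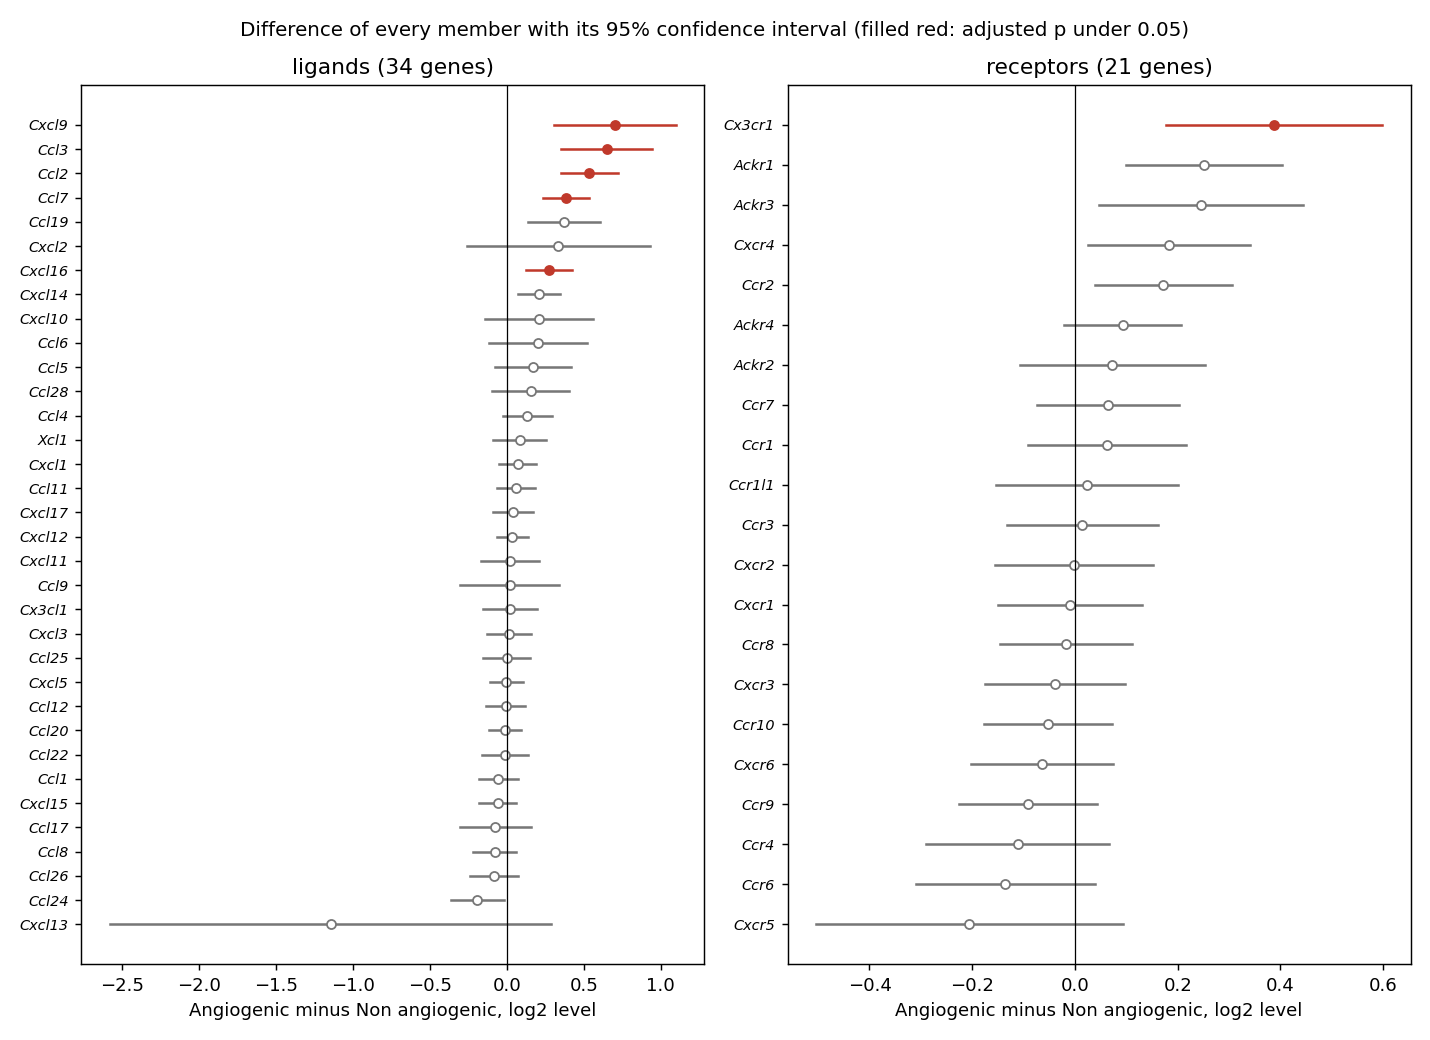
Difference in log2 level, angiogenic minus non angiogenic, for the 34 ligands (left) and 21 receptors (right), with 95% confidence intervals from limma and a separate scale for each panel. Filled red points passed an adjusted p under 0.05. They are 5 ligands and the receptor Cx3cr1, all to the right of 0, while Cxcl13 at -1.14 has the widest interval.

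The monocyte-attracting CC ligands Ccl2, Ccl7 and Ccl3 rose in angiogenic islets. Ccl2 (transcript cluster 10379511) encodes MCP-1, the main ligand of CCR2. Its log2 level was 8.52, 8.73 and 8.89 (lowest, median, highest of 6) in angiogenic islets and 7.90, 8.22 and 8.44 in non angiogenic islets. Every angiogenic pool lay above every non angiogenic pool. The difference was 0.54 ± 0.09 (SE, 6 arrays per group), a ratio of 1.45, with an adjusted p of 0.00138 from limma. Of the 55 members, 2 (Ccl2 and Ccl7) had groups without overlap and higher in angiogenic islets, as did 2.85% of all genes, and 0 had groups without overlap and lower, against 0.923%. Ccl2, Ccl3 and Cxcl9 are also named in the study as picked from these arrays, so their rise is not independent evidence.

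Ccl7 (10379518), which encodes MCP-3, another CCR2 ligand, lies next to Ccl2. Levels were 7.90, 7.99 and 8.15 in angiogenic islets, against 7.44, 7.59 and 7.84 in non angiogenic islets. The groups did not overlap here either, and the ratio was 1.31 (difference 0.38 ± 0.07, adjusted p = 0.00435 from limma). Ccl3 (10389231) encodes MIP-1 alpha, a ligand of CCR1. It had the second largest rise among the members, 0.65 ± 0.14 or a ratio of 1.57 (adjusted p = 0.0121 from limma). Its levels were 10.08, 10.17 and 10.72 in angiogenic islets and 9.31, 9.65 and 10.12 in non angiogenic islets. Only Non Angiogenic replicate 6 reached into the angiogenic range, and 5 of 6 angiogenic pools lay above it. The calls of Ccl2, Ccl7 and Ccl3 were kept when any of the 12 arrays was left out, with adjusted p-values of at most 0.00468, 0.0143 and 0.0338.

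Their relatives on the same chromosome did not pass the test. Ccl4 (MIP-1 beta), a neighbour of Ccl3, had levels of 6.65 to 7.03 in angiogenic islets and 6.44 to 6.85 in non angiogenic islets, with a difference of 0.13 ± 0.07. Ccl5 (RANTES), which attracts T cells and monocytes, had 8.78, 9.23 and 9.43 in angiogenic islets and 8.64, 9.03 and 9.27 in non angiogenic islets. These ranges overlapped for the most part, and the Ccl5 difference of 0.17 had a 95% confidence interval from -0.08 to 0.42 (adjusted p = 0.589 from limma). The eosinophil-attracting Ccl11 had a difference of 0.06 ± 0.06.

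Among the interferon-inducible CXC ligands, Cxcl9 (10531407) rose while its neighbours Cxcl10 and Cxcl11 did not pass. Cxcl9 levels were 9.22, 9.65 and 9.84 in angiogenic islets and 8.16, 9.04 and 9.53 in non angiogenic islets, the largest rise of any member (0.70 ± 0.18, ratio 1.63, adjusted p = 0.0434 from limma). The SD was 0.22 in angiogenic islets and 0.48 in non angiogenic islets, where replicate 1 was lowest and replicate 2 reached above the lowest angiogenic pool. This call depended on single arrays: it held without Angiogenic replicate 1 (adjusted p = 0.0332) and without Non Angiogenic replicate 2 (0.0113), and was lost without any of the other 10 arrays, at adjusted p-values of 0.0534 to 0.106 from limma. The difference itself stayed between 0.55 and 0.83.

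Cxcl10 encodes IP-10, which shares the receptor CXCR3 with CXCL9. It had 9.50, 9.65 and 10.14 in angiogenic islets and 8.85, 9.57 and 10.04 in non angiogenic islets, which overlapped over most of their range. Its difference was 0.21 ± 0.16 (95% confidence interval -0.14 to 0.56), 0.47 in replicates 1 to 3 but -0.05 in replicates 4 to 6. Cxcl11 lay below the dim limit, at 5.63 to 6.17 in angiogenic islets and 5.80 to 6.14 in non angiogenic islets. The differences of Cxcl9 and Cxcl10 were not tested against each other.

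Cxcl16 (10387890) encodes a membrane-bound ligand of CXCR6 that also acts as a scavenger receptor. Its log2 level was 8.59, 8.88 and 8.93 in angiogenic islets and 8.42, 8.55 and 8.71 in non angiogenic islets. All angiogenic pools but replicate 1 lay above all non angiogenic pools. The ratio was 1.21 (difference 0.27 ± 0.07, adjusted p = 0.0355 from limma), and the call was lost without Angiogenic replicates 2, 4, 5 or 6 or Non Angiogenic replicates 1, 2, 3 or 6, at adjusted p-values of 0.0519 to 0.0913. Its receptor gene Cxcr6 was below the dim limit in both groups and did not pass (-0.06 ± 0.06).

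The neutrophil-attracting CXC ligands among the members did not pass the test, whereas Ppbp (CXCL7), which shares their receptor but has a symbol outside the rule, passed at a dim level. Cxcl2 encodes MIP-2 and varied widely within each group, with 7.25, 7.66 and 8.40 in angiogenic islets and 6.53, 7.56 and 8.11 in non angiogenic islets. Its difference of 0.33 had a 95% confidence interval from -0.26 to 0.93 (adjusted p = 0.687 from limma), so a rise or fall of this size was not detectable with 6 arrays per group. Cxcl1, Cxcl3 and Cxcl5, its relatives with the same receptor, had differences of 0.07 ± 0.06, 0.02 ± 0.07 and -0.0026 ± 0.05. Cxcl3 and Cxcl5 had mean levels below the dim limit, where a change could be hidden. Cxcr2, the receptor, lay at 4.26 to 4.61 in angiogenic islets and 4.17 to 4.51 in non angiogenic islets, below the dim limit. Of 12 measured neutrophil markers, 1 was above that limit and 0 passed in either direction, with list means of 5.67 to 5.80 in angiogenic islets and 5.59 to 5.80 in non angiogenic islets.

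Among the ligands of steady-state and lymphoid tissue, Ccl19 and Cxcl14 did not pass by limma on all deposited values without covariates. Both passed with the set as a block. Ccl19 (10504159) encodes a CCR7 ligand that guides dendritic cells and T cells. It had 8.13, 8.49 and 8.69 in angiogenic islets and 7.73, 8.17 and 8.21 in non angiogenic islets. Angiogenic pools were mostly higher, but replicates 3 and 6 lay within the non angiogenic range. The ratio was 1.29 (difference 0.37 ± 0.11), with an adjusted p of 0.0738 from limma, or 0.0407 with the set as a block, and also below 0.05 without Angiogenic replicate 3 (0.0470) or replicate 6 (0.0383). Ccl19 has 5 transcript clusters of near-identical copies, whose differences ran from 0.27 to 0.41 and which cannot be told apart. Cxcl14, expressed in epithelia and stroma, had 6.68, 6.91 and 7.02 in angiogenic islets and 6.54, 6.64 and 6.81 in non angiogenic islets, and its ratio was 1.16 (adjusted p = 0.0956, or 0.0461 with the block and 0.0404 without Angiogenic replicate 6, from limma). Cxcl12, the CXCR4 ligand, differed by 0.04 ± 0.05 (95% confidence interval -0.06 to 0.14).

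**Figure D2:**
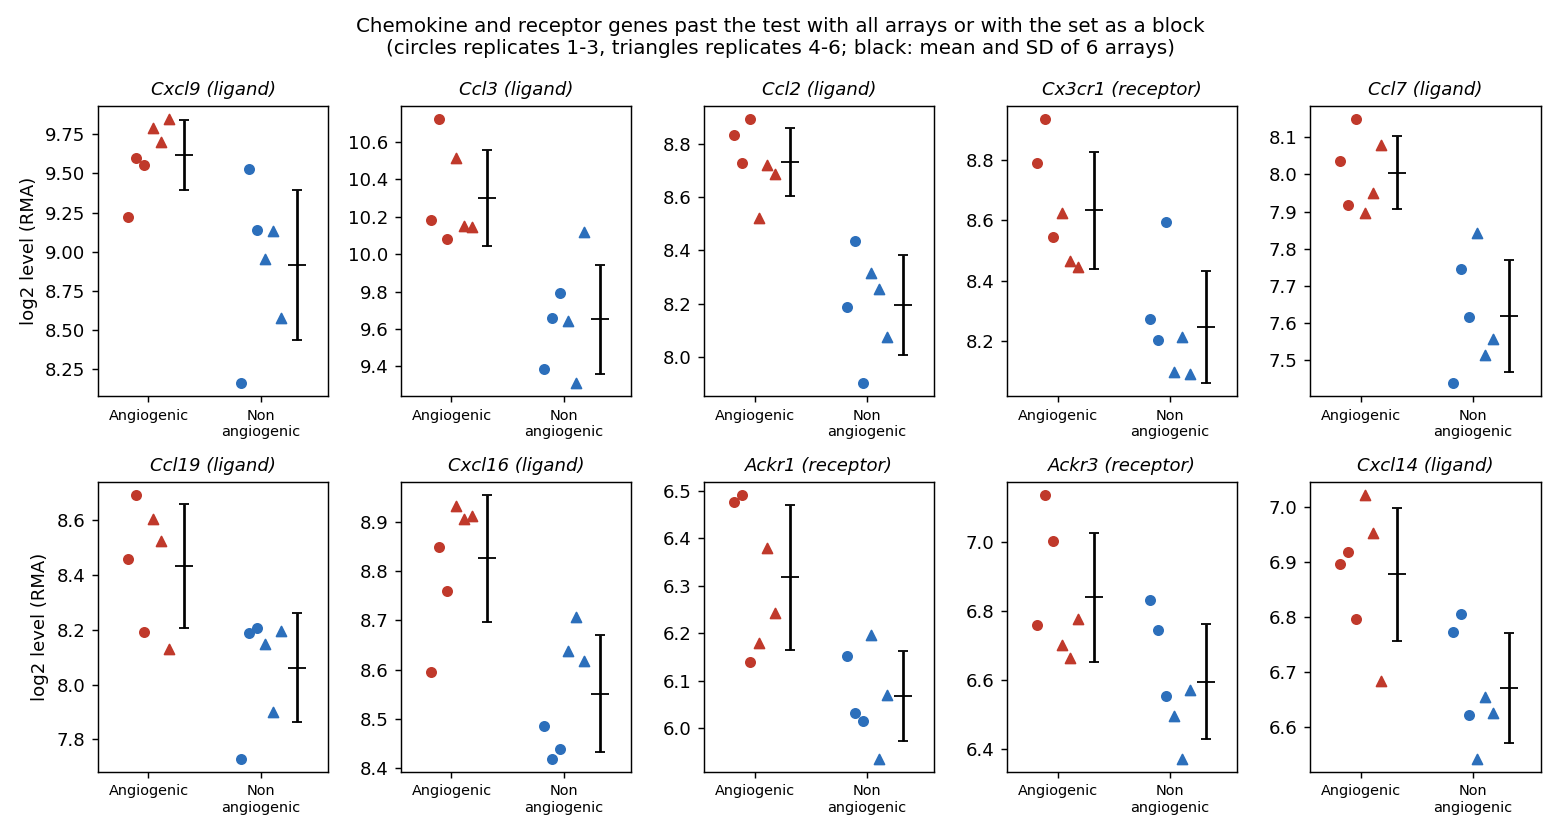
RMA log2 level of each array for the 10 members past the test with all arrays or with the set as a block, angiogenic pools in red to the left of non angiogenic pools in blue. Circles are replicates 1 to 3, triangles replicates 4 to 6, and the black bar is the mean with its SD (6 arrays). For Ccl2 and Ccl7 the lowest angiogenic pool lies above the highest non angiogenic pool, and for the other 8 the groups overlap.

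Cx3cr1 (10597743), the fractalkine receptor of monocytes and tissue macrophages, was the only receptor past the test. Levels were 8.44, 8.59 and 8.93 in angiogenic islets and 8.09, 8.21 and 8.60 in non angiogenic islets. The overlap came from Non Angiogenic replicate 3 at 8.60, which 3 of 6 angiogenic pools exceeded, while the other non angiogenic pools lay below all angiogenic pools. Cx3cr1 differed by 0.39 ± 0.10, a ratio of 1.31 (adjusted p = 0.0352 from limma). That call was lost without Angiogenic replicates 1, 2 or 4 or Non Angiogenic replicates 1, 2, 4, 5 or 6, at adjusted p-values of 0.0596 to 0.083, and with array weights (0.0513).

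Its ligand gene Cx3cl1 did not pass the test. Cx3cl1, a membrane-bound chemokine of endothelium and epithelium, had 9.54, 9.61 and 9.77 in angiogenic islets and 9.25, 9.66 and 9.79 in non angiogenic islets. Angiogenic pools lay within the non angiogenic range, and the difference of 0.02 had a 95% confidence interval from -0.16 to 0.19. Its sign turned in replicates 4 to 6 alone, at -0.08.

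The receptors of the CC ligands that rose did not pass. None of the 10 CC receptor genes was called by limma, against 3.55% of all genes higher and 0.948% lower. At an unadjusted p under 0.05 from limma, 1 was higher, against 7.76% of all genes higher and 6.59% lower. Differences of the 10 ran from -0.14 to 0.17. Ccr2, the receptor of CCL2 and CCL7, had 5.35, 5.52 and 5.59 in angiogenic islets and 5.16, 5.34 and 5.44 in non angiogenic islets, and its difference of 0.17 ± 0.06 had an adjusted p of 0.173 from limma. Ccr1, a CCL3 receptor, differed by 0.06 ± 0.07. Both lay below the dim limit, where a change could be hidden. Ccr7 was brighter, at 8.37 ± 0.13 in angiogenic islets and 8.31 ± 0.08 in non angiogenic islets (SD, n = 6 each), with a difference of 0.06 and a confidence interval from -0.07 to 0.20. Ccr10, which binds CCL27 and CCL28, had 7.15 ± 0.07 in angiogenic islets and 7.20 ± 0.12 in non angiogenic islets. In replicates 1 to 3 it differed by -0.17, but in replicates 4 to 6 by 0.06.

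No CXC receptor gene of 6 passed either, against 3.55% of all genes higher and 0.948% lower. At an unadjusted p under 0.05 from limma, 1 was higher, Cxcr4, against 7.76% of all genes higher and 6.59% lower. Cxcr4, the CXCL12 receptor of leukocytes and vessel tips, had 7.91, 8.11 and 8.25 in angiogenic islets and 7.75, 7.90 and 8.11 in non angiogenic islets. The upper part of the angiogenic range stood clear, 3 of 6 pools lying above all non angiogenic pools, and the difference of 0.18 had an adjusted p of 0.242 from limma. Cxcr3, the receptor of CXCL9 and CXCL10, had 6.54 to 6.83 in angiogenic islets and 6.60 to 6.90 in non angiogenic islets (difference -0.04, 95% confidence interval -0.17 to 0.10). T and NK cell markers, which label cells that carry CXCR3, were called in neither direction (0 of 16 measured, 6 of them above the dim limit), with list means of 5.96 to 6.05 in angiogenic islets and 5.92 to 6.08 in non angiogenic islets.

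All 4 atypical receptors had differences above 0 in each set, as did 23.8% of all genes. None passed with all arrays, and 2 were higher at an unadjusted p under 0.05 from limma, against 7.76% of all genes. Ackr1 and Ackr3 passed with the set as a block, by which 5.88% of all genes were higher. Ackr1, the Duffy antigen receptor found on venules and red cells, had 6.14, 6.31 and 6.49 in angiogenic islets and 5.94, 6.05 and 6.20 in non angiogenic islets, with its mean below the dim limit. It differed by 0.25 ± 0.07 (adjusted p = 0.0629, or 0.0301 with the set as a block, from limma), and passed without Angiogenic replicate 3 (0.0332) or Non Angiogenic replicate 4 (0.0467). Ackr3, a scavenger of CXCL12 on endothelium and other cells, had 6.66, 6.77 and 7.14 in angiogenic islets and 6.37, 6.56 and 6.83 in non angiogenic islets, a difference of 0.25 ± 0.09 (adjusted p = 0.203, or 0.0288 with the block). For Ackr1 and Ackr3, 4 and 2 of 6 angiogenic pools lay above all non angiogenic pools. Ackr2, which clears CC ligands, and Ackr4, which clears CCL19 and CCL21, had smaller differences of 0.07 ± 0.08 and 0.09 ± 0.05, and Ackr4 too lay below the dim limit.

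Most markers of macrophages, endothelium, pericytes and smooth muscle, and fibroblasts were also higher in angiogenic islets (limma, adjusted p under 0.05). Over all genes, 3.55% were higher and 0.948% lower by that rule. Of the macrophage list 12 of 18 measured markers rose and 0 fell, with list means of 8.83 to 9.20 in angiogenic islets and 8.42 to 8.71 in non angiogenic islets, which did not overlap. Only 1 of the 18 lay below the dim limit. Likewise 13 of 15 endothelial markers rose (9.49 to 9.66 in angiogenic islets, 9.004 to 9.18 in non angiogenic islets), 13 of 14 pericyte and smooth muscle markers (8.46 to 8.84 in angiogenic islets, 7.84 to 8.01 in non angiogenic islets) and 10 of 13 fibroblast markers (8.86 to 9.13 in angiogenic islets, 7.88 to 8.24 in non angiogenic islets). Dendritic cell markers without Ccr7 had 2 of 9 higher, and lymphatic endothelial markers 1 of 6. The part of these cell types in the differences of Ccl2, Ccl3, Cxcl9, Cx3cr1, Ccl19 and Ackr1 was not tested.

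With the set as a block, 7 ligands and 3 receptors were higher and 0 members lower, against 5.88% and 2.74% of all genes. Within replicates 1 to 3 alone (3 against 3 arrays), Ccl2, Ccl7 and Ccl3 passed, at differences of 0.64, 0.43 and 0.71, and no receptor did, against 2.37% of all genes higher and 0.331% lower. At an unadjusted p under 0.05 in that set, 4 receptors were higher and 2 lower, against 8.23% of all genes higher and 8.25% lower. Within replicates 4 to 6, Ccl2 (0.43), Cxcl9 (0.89), Cxcl16 (0.26) and Cx3cr1 (0.38) passed, against 3.11% of all genes higher and 0.737% lower. Ccl2 thus passed in each set. The other 5 called members passed in only 1 set, yet each had a difference above 0 in both, and for none did the sets differ by a test of that difference: the limma interaction of group and set called 0 of 55 members (4 at an unadjusted p under 0.05), against 0.00502% of all genes adjusted and 6.41% unadjusted.

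The members with an unadjusted interaction p under 0.05 were Ccl1, Ccl12, Ccl22 and Ccr10, of which Ccl22 had the smallest (adjusted p = 0.717 from limma). Ccl22, a dendritic cell and macrophage product that attracts regulatory T cells, had a difference of -0.17 in replicates 1 to 3 but of 0.14 in replicates 4 to 6. Mean levels of Ccl1, Ccl12 and Ccl22 lay below the dim limit, that of Ccl22 only just. Differences were above 0 in both sets for 26 of 55 members and of opposite sign for 21, against 23.8% and 39.2% of all genes. Ligand medians were 0.03 in replicates 1 to 3 and 0.08 in replicates 4 to 6, receptor medians 0.01 and 0.06, and medians of all genes -0.03 and -0.01.

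**Figure D3:**
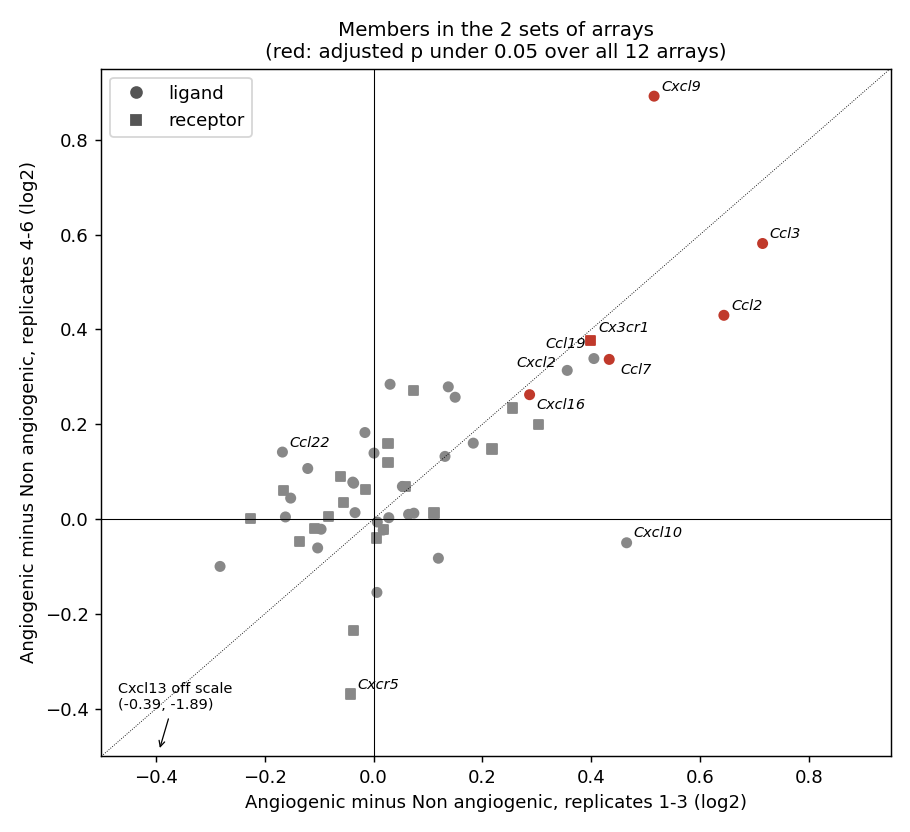
Difference in log2 level, angiogenic minus non angiogenic, in replicates 1 to 3 (horizontal) and replicates 4 to 6 (vertical), for the ligands (circles) and receptors (squares), with the diagonal of equal differences dotted. Red points passed with all 12 arrays, and all lie above 0 on both axes, while Cxcl10 (0.47 and -0.05) and Ccl22 (-0.17 and 0.14) turned sign. Cxcl13 (-0.39 and -1.89) is off scale. The mean level of Ccl22 lay just below the dim limit.

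Many chemokine genes lie side by side in the genome. Consecutive members with starts within 1 megabase of each other formed 6 runs of at least 3 genes. In the run of Ccl2, Ccl7, Ccl11, Ccl12, Ccl8 and Ccl1 on chromosome 11, the first 2 genes rose. The remaining 4 had differences between -0.08 and 0.06. Of these, Ccl12, Ccl8 and Ccl1 had mean levels below the dim limit, where a change could be hidden. The other run on that chromosome, Ccl5, Ccl9, Ccl6, Ccl3 and Ccl4, had Ccl3 past the test, and the others between 0.02 and 0.20. On chromosome 5, Cxcl9 passed and Cxcl10 and Cxcl11 did not. Among Cxcl5, Cxcl3, Cxcl15, Cxcl1 and Cxcl2, also on chromosome 5, none passed. Ccl22, Cx3cl1 and Ccl17 on chromosome 8 had none past the test either, nor did the receptor run Ccr9, Cxcr6, Ccr1, Ccr1l1, Ccr3 and Ccr2 on chromosome 9. Cxcl11, Cxcl5, Cxcl3, Cxcl15, Ccl22 and every gene of the receptor run also had mean levels below the dim limit. Differences between neighbours were not tested.

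**Figure D4:**
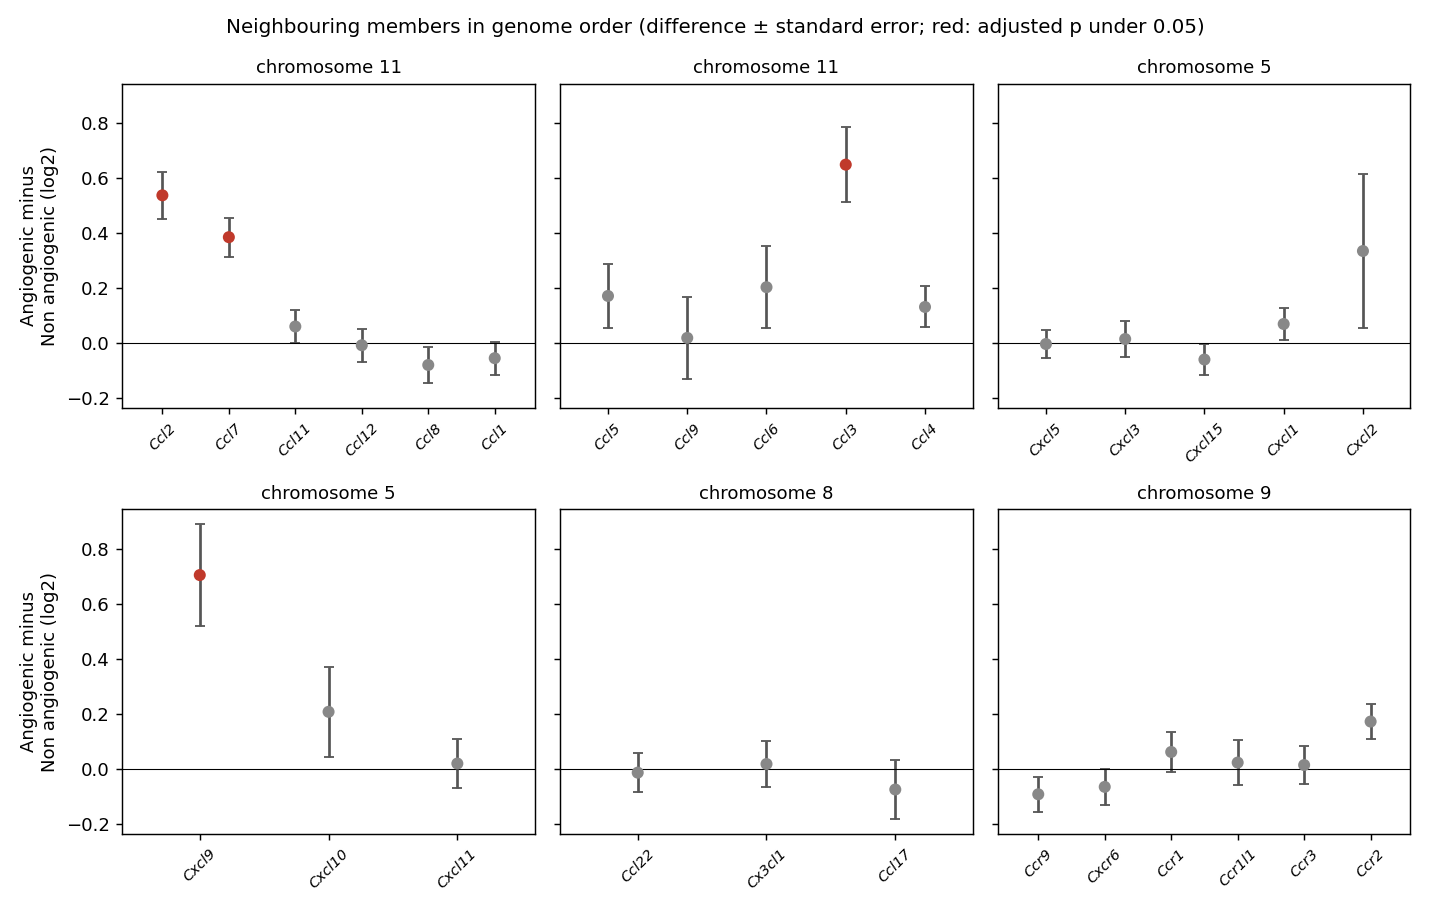
Difference in log2 level, angiogenic minus non angiogenic, with its standard error, for the 6 runs of neighbouring members in genome order. Red points passed an adjusted p under 0.05. Ccl2 (0.54) and Ccl7 (0.38) stand beside Ccl11 (0.06), and Ccl3 (0.65) beside Ccl6 (0.20) and Ccl4 (0.13). Genes with a mean level below the dim limit are not marked apart.

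Cxcl13 (10523359), the ligand that draws B cells into follicles through CXCR5, had the lowest difference of all 19938 genes without passing the test. Its levels were 5.53, 5.85 and 6.11 in angiogenic islets and 5.78, 6.11 and 10.86 in non angiogenic islets. The value of 10.86 was that of Non Angiogenic replicate 4, followed by replicate 3 at 7.10, and the other 4 non angiogenic pools lay between 5.78 and 6.14, in or beside the angiogenic range. The difference was -1.14 ± 0.67 (95% confidence interval -2.58 to 0.29, adjusted p = 0.502 from limma). With Non Angiogenic replicate 4 left out it was -0.37 ± 0.19 (adjusted p = 0.35), the 85th lowest.

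Its receptor gene Cxcr5 had 4.85, 5.03 and 5.18 in angiogenic islets and 4.91, 5.11 and 5.97 in non angiogenic islets, below the dim limit in both groups. Here too Non Angiogenic replicate 4 was highest, and the remaining pools of both groups overlapped (difference -0.21 ± 0.14, adjusted p = 0.591 from limma). On that array the B cell genes Ms4a1 (CD20), Cd79b and Cd79a had 7.30, 8.71 and 7.32, against at most 4.85, 7.03 and 5.90 on the angiogenic arrays and at most 5.04, 7.07 and 6.36 on the other non angiogenic arrays. Means of the 10 measured B cell and plasma cell markers were 6.22 to 6.35 in angiogenic islets and 6.22 to 7.33 in non angiogenic islets, or at most 6.52 without replicate 4. Of these markers 5 were above the dim limit and 0 were called in either direction. Their part in the Cxcl13 value was not tested.

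**Figure D5:**
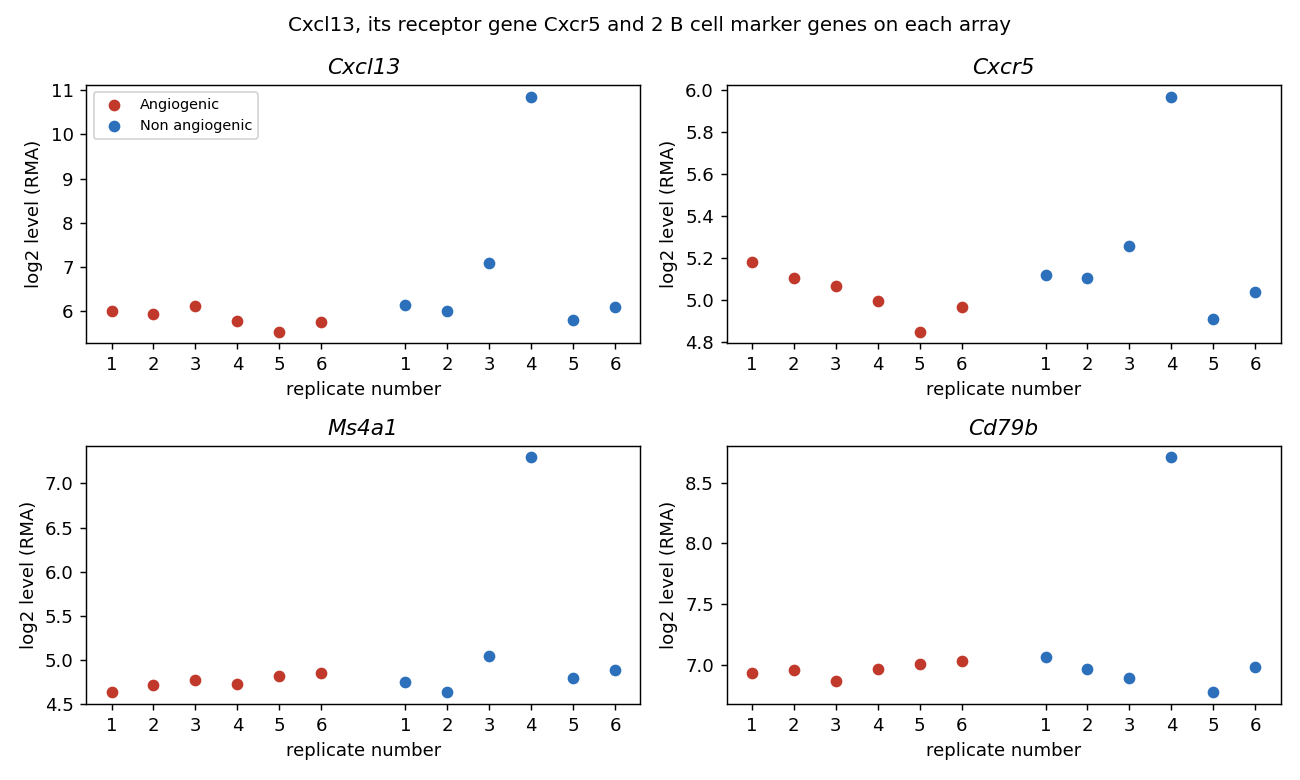
RMA log2 level of Cxcl13, Cxcr5 and the B cell markers Ms4a1 and Cd79b on each array by replicate number, angiogenic pools (red) left of non angiogenic pools (blue). In all 4 panels the highest point is Non Angiogenic replicate 4, with Cxcl13 at 10.86 and Cd79b at 8.71.

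The 35 members not described by the rule for named genes gave 0 calls, against 3.55% of all genes higher and 0.948% lower. At an unadjusted p under 0.05 from limma, 1 was higher, Ccr2, and 1 lower, Ccl24, against 7.76% and 6.59% of all genes. Differences of the 35 ran from -0.19 to 0.20 for 22 ligands and from -0.14 to 0.17 for 13 receptors, with medians of 0.01 and -0.01. Ccl24, an eosinophil attractant, was lowest of them at -0.19 ± 0.08 (adjusted p = 0.265 from limma), and lay below the dim limit.

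Genes that act downstream of chemokine receptors were taken from a list of 72, of which 57 were measured outside the members. Of these, 5 rose and 1 fell (limma, adjusted p under 0.05), against the 3.55% and 0.948% of all genes. Arrb1, which encodes beta-arrestin 1, an adaptor that ends G protein signalling and carries receptors inward, was 8.30, 8.49 and 8.65 in angiogenic islets and 7.87, 8.07 and 8.16 in non angiogenic islets. The groups did not overlap, and the ratio was 1.37 (difference 0.45 ± 0.07, adjusted p = 0.000898). Gng11, a G protein gamma subunit, had 6.35, 6.54 and 6.95 in angiogenic islets and 5.93, 6.17 and 6.27 in non angiogenic islets, also without overlap (difference 0.47 ± 0.09, adjusted p = 0.00795). All its non angiogenic arrays lay below the dim limit, so no ratio is given, and the list had 4 genes higher when genes below that limit were left out. Of the Rac activators, the guanine nucleotide exchange factor genes Vav3 and Vav1 had ratios of 1.22 and 1.21. The non angiogenic mean of Vav3, 6.37, lay below the dim limit, where RMA compresses differences. Elmo1, a partner of DOCK proteins, had a ratio of 1.17.

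Grk3, a kinase that phosphorylates active receptors, was the gene of the list that fell. It had 9.82, 9.91 and 9.97 in angiogenic islets and 10.01, 10.12 and 10.16 in non angiogenic islets, which did not overlap, with a difference of -0.19 ± 0.05 (adjusted p = 0.026 from limma). Grk3 and Vav1 lost their calls without any of 7 arrays (Angiogenic replicates 2, 4 and 5 and Non Angiogenic replicates 1, 2, 5 and 6), at adjusted p-values of up to 0.0716 and 0.0743. Prex1, a Rac exchange factor of leukocytes, differed by 0.25 and did not pass (adjusted p = 0.0664), nor did Rgs1 (0.34) and Rgs2 (-0.32), which speed the shutdown of G proteins. Without Non Angiogenic replicate 4, the list had 8 genes higher. With the set as a block it had 10 higher and 2 lower.

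Chemokine-related genes whose symbols fall outside the rule were listed too. Of 19 listed, 16 were measured, and 3 rose while 0 fell against the 3.55% and 0.948% of all genes (5 higher and 1 lower at an unadjusted p under 0.05, against 7.76% and 6.59%). Cmklr1, the chemerin receptor of macrophages, dendritic and NK cells, had 7.61, 7.90 and 8.16 in angiogenic islets and 7.05, 7.17 and 7.21 in non angiogenic islets. Its groups did not overlap, and the ratio of 1.67 had an adjusted p of 1.82e-05 from limma. Cmtm3, a chemokine-like factor gene, had 9.45, 9.79 and 9.98 in angiogenic islets and 8.79, 8.96 and 9.36 in non angiogenic islets, again without overlap (ratio 1.66, adjusted p = 0.000898). Ppbp, a CXC chemokine of platelets, differed by 0.47 ± 0.12 (adjusted p = 0.0315), with all non angiogenic arrays below the dim limit, so that no ratio is given. The call was lost without any of 7 arrays, Angiogenic replicates 2, 4, 5 or 6 or Non Angiogenic replicates 1, 2 or 3 (up to 0.08). Pf4, the related platelet factor, had a difference of 0.16 at a level below the dim limit and did not pass (adjusted p = 0.157), nor did Gpr75 (-0.32) and Dpp4 (-0.15), the peptidase that trims many chemokines.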

How the data were processed

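RNA of 12 islet pools was measured on Affymetrix mouse gene arrays. The authors deposited log2 levels per transcript cluster, made with RMA in Affymetrix Expression Console per the submitters' processing notes, versions not given in the sources used here. RMA corrects the background, brings arrays to a common distribution and summarises probes, which compresses dim signals. The number of arrays limits the precision. Of 35556 clusters, 21789 had 1 symbol in the platform annotation, 1621 several and 12146 none here. The brightest cluster by the mean of all arrays stood for each of 999 genes with several, leaving 19938 genes. Another 7 clusters with several symbols, a matching one among them, were not used. All 55 member identifiers were found in RefSeq under the same symbol. Coordinates are given only for the upstream windows shown, on RefSeq build GRCm38.p6, and the order of neighbours rests on RefSeq gene starts. No coordinates are given for the array's clusters, because no source names the array's build.

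Groups and replicate numbers came from the labels. R 4.3.3 and limma 3.58.1 (lmFit and eBayes, two-sided) were used on the deposited values without covariates and tested on simulated data. P-values were adjusted over all genes after Benjamini and Hochberg, with 0.05 as the threshold. The set of arrays entered as a block, alone or as an interaction term. The study's methods name a t-test, run here as an alternative and called the methods' t-test. Other alternatives were array weights, an intensity trend, quantile normalization, median centring, a filter on dim genes, the mean of a gene's clusters, the replicate number as a block, the acinar marker mean as a covariate, and leaving out each array.

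The members and lists were chosen with earlier results of these data known. Named with values are the members past the threshold with all arrays, with the set as a block or in a set, the 4 ligands and 4 receptors of largest difference that did not pass, the 5 brightest of each class, and those the paper names (20 in all). In each of the 2 other lists the rule takes at most 6 genes past the threshold and the 3 largest differences that did not pass. Receptors and ligands paired with these, genome neighbours, Ackr4, Ccl24, the members with a low interaction p, and the B cell genes were named after their values were seen. Neighbours are consecutive members within 1 megabase, in runs of at least 3. Erythroid markers (2 of 10 measured) gave 0 calls (list means of 7.06 to 7.54 in angiogenic islets and 6.95 to 7.28 in non angiogenic islets), and acinar markers 0 of 13. Of 10 beta cell markers 1 was lower and 0 higher.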

Additional observations from a re-analysis of the deposited data

Results flagged for a closer look

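Outlying arrays were looked for among the 20 named members in each group, 40 groups of 6 arrays. In 3 of them the highest array lay farther from its nearest neighbour than Dixon's critical value for 6 samples allows, as a share of the group's range, where chance gives about 1 in 20. Cxcl13 in Non Angiogenic replicate 4 was at a log2 level of 10.86, the nearest other non angiogenic array at 7.10, a gap of 0.741 of the range. Cxcr5 was at 5.97 on the same array, the nearest at 5.25 (0.673). Cx3cr1 in Non Angiogenic replicate 3 was at 8.60, the nearest at 8.27 (0.64), and without this array the Cx3cr1 difference was 0.46 (adjusted p = 0.00717 from limma).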

How the results depend on the processing

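The 5 higher ligands were 2 by the methods' t-test after adjustment (Ccl2 and Ccl7), 3 in replicates 1 to 3 alone, 3 in replicates 4 to 6 alone, and 3 to 5 with an array left out. Under the other alternatives they were 4 to 7. No ligand was lower except 1 by the t-test without adjustment. The single higher receptor became 5 by the t-test without adjustment and 0 after it, 0 with array weights, 2 with quantile normalization, 3 with the set as a block, 0 in replicates 1 to 3 alone, and 0 to 2 with an array left out. Signalling genes, 5 higher and 1 lower, were 15 and 4 by the t-test without adjustment, 2 lower after adjustment and with array weights, 0 lower with quantile normalization, 10 and 2 with the set as a block, 1 and 0 in replicates 1 to 3, 0 lower in replicates 4 to 6, and 4 to 8 higher and 0 to 1 lower with an array left out.

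Deviations from the group means correlated at 0.028 to 0.54 between arrays of the same replicate number, but only 2 of 6 numbers correlated best with their own, and the numbers were not taken to pair the pools. The replicate block gave 5 ligands and 3 receptors higher and, of signalling genes, 10 higher and 3 lower.

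Calls were lost for Ccl3 (adjusted p = 0.0547), Cx3cr1 (0.0959), Cxcl16 (0.0711) and Cxcl9 (0.13) by the adjusted t-test, and for Cxcl16 with median centring (0.0582). Signs turned for members that had not passed: Ccr10 to 0.061 and Cxcl10 to -0.0499 in replicates 4 to 6 alone, and Cx3cl1 to -0.0825 there and to -0.0079 with array weights, its difference running from -0.0516 to 0.0546 with an array left out. Over the named genes and alternatives, 792 values kept direction and side of the threshold, 70 lost a call, 33 gained 1 and 7 turned. The median difference of all genes moved by under 0.1 in each. Receptors below the dim limit, 14 of 21, limit what can be seen of them.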
